A study of Mus musculus with 6 samples.

Results

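The 8 genes described here are the lipocalins that the mouse epididymis is known for: Ptgds, Lcn2, Lcn5, Lcn6, Lcn8, Lcn9, Lcn10 and Lcn12. They were chosen by symbol, and all 8 are among the 23229 annotated genes of the deposited tables. RNA was sequenced from mature spermatozoa of C57BL/6 mice of the transgenic line HP3.1, aged 4 months, taken from the cauda epididymis and vas deferens. One group is sperm nuclei, freed by sonication and spun through sucrose and caesium chloride with detergent; the other is whole sperm, extracted without those steps. Every preparation carries the transgene, whose content the labels do not give, so no group here is wild type. The 6 labelled samples are 2 runs of each of 3 preparations, and each preparation has 1 column of values, which leaves 2 nuclei libraries (nuclei 1 and nuclei 2) and 1 whole-sperm library. The labels speak of individual mice but tie no preparation to an animal, so p-values measure only the spread between these libraries, which may be technical.

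Lipocalins are small secreted proteins with a barrel-shaped pocket that carries retinoids, steroids, fatty acids or iron-binding siderophores. The epididymal members are made by the epithelium of the duct, several of them in its first segments, and are released into the fluid in which sperm mature. Ptgds differs from the rest in being an enzyme as well as a carrier: it converts prostaglandin H2 to prostaglandin D2. Mature sperm are held to be largely silent in transcription, and the RNA found with them may be left from spermatogenesis, taken up in the epididymis or carried over in other cells.

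The libraries held 5487306, 6648848 and 8316345 gene and region counts (nuclei 1, nuclei 2, whole sperm). Levels are given as CPM, counts scaled to library size, with TMM normalisation, a scaling that trims extreme genes. All 15 markers of sperm and spermatids were counted in every library, with summed levels of 5604, 5538 and 3191 CPM in that order. Prm2, the protamine transcript assayed in each extract, had levels of 592, 431 and 319 CPM. Markers of epididymal principal cells were also present, with sums of 2074, 2166 and 11840 CPM. Sums for clear cells (37.0, 33.3 and 28.6 CPM), basal cells (2.48, 51.6 and 29.2), leukocytes other than neutrophils (50.8, 16.3 and 53.1) and smooth muscle and stroma (270, 326 and 213) were lower. Vwf alone gave 129, 246 and 68.7 CPM of the last sum. In 6 of the 10 genes of that list that were tested, both nuclei libraries lay below whole sperm.

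All but 1 of the members lie in one cluster on chromosome 2 (build mm10), 358829 bases from Ptgds to Lcn9; Lcn2 lies apart on the same chromosome, 6559095 bases further on. None of the 8 overlaps another gene of the GENCODE vM21 annotation on either strand. RefSeq holds a promoter for each (build GRCm38.p6). Of these, 4 hold the letters AGAACA, the hexamer of steroid hormone response elements, on either strand within 250 bases before the start, where 16.1% of 32851 promoter windows of that length hold it. The 60 bases around each match are shown because this hexamer was found in more members than any other motif searched, with the match in capitals.
Lcn12, chr2:25494082-25494141, minus strand: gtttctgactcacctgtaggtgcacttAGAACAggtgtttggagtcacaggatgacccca
Lcn9, chr2:25823081-25823140, plus strand: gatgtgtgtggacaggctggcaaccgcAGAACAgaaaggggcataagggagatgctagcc
Lcn6, chr2:25676570-25676629, plus strand: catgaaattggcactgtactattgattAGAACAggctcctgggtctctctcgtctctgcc
Lcn10, chr2:25682536-25682595, plus strand: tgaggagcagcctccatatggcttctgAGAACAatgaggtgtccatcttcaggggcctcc
The hexamer did not divide the members by level. Lcn12 was counted in every library, Lcn9 in 1, and Lcn6 and Lcn10 in none, while Ptgds, the member with most reads, had no match in its window. The windows of Ptgds and Lcn2 overlapped annotated exons of those genes themselves, so they are not wholly upstream sequence.

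Ptgds made up most lipocalin reads in every library. The 8 members together gave 479, 886 and 2116 counts (nuclei 1, nuclei 2, whole sperm), and Ptgds supplied 79.7%, 87.5% and 91.1% of them. Summed, the members took 0.00873% of counts in nuclei 1 (exact 95% interval 0.00796 to 0.00955), 0.0133% of those in nuclei 2 (0.0125 to 0.0142) and 0.0254% of those in whole sperm (0.0244 to 0.0266). Such intervals reflect counting error alone and treat reads as independent. Duplicate molecules from PCR could not be removed, so the intervals may be too narrow. Only 3 members had a count in any 1 library, and 4 had none anywhere.

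**Figure D1:**
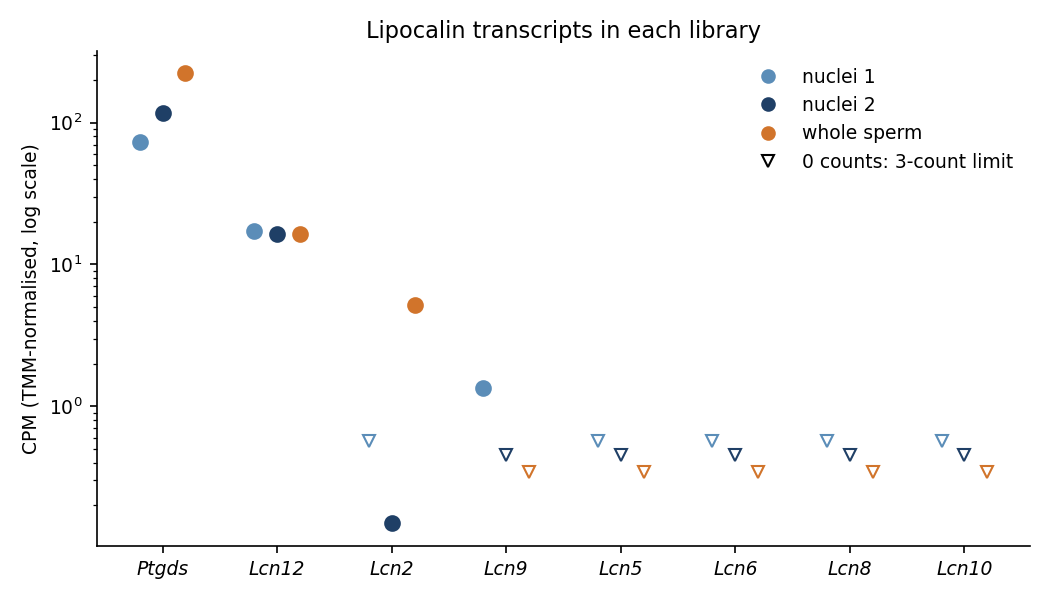
CPM of each lipocalin on a log scale, with 1 point per library; open triangles mark libraries with 0 counts, drawn at the level that 3 counts would give. Ptgds lies highest in whole sperm, the 3 points of Lcn12 lie together between 16.5 and 17.2 CPM, Lcn2 has its 1 nuclei count under the triangles, and Lcn5, Lcn6, Lcn8 and Lcn10 have triangles only.

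Ptgds (ENSMUSG00000015090.13, chr2:25466709-25470046, minus strand) encodes lipocalin-type prostaglandin D synthase, a major protein of male reproductive fluids. Its counts were 382 (nuclei 1), 775 (nuclei 2) and 1928 (whole sperm), which is 72.9, 116 and 223 CPM. Both nuclei libraries lay below whole sperm, and they also differed from each other. By rank among annotated genes, Ptgds stood at place 277 in whole sperm, 923 in nuclei 2 and 1268 in nuclei 1. The whole-sperm level was 3.05 times that of nuclei 1 (95% counting interval 2.74 to 3.42) and 1.92 times that of nuclei 2 (1.76 to 2.09). Nuclei 2 was itself 1.59 times nuclei 1 (1.41 to 1.81), so the nuclei libraries differed beyond counting error if reads are taken as independent.

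The nuclei mean of 94.5 ± 30.6 CPM (SD, n = 2) did not pass the test against whole sperm. The error of that test rests on a spread pooled over features, not on this SD. The log2 fold change, nuclei over whole sperm, was -1.24 ± 0.744 (SE), with an interval of -2.69 to 0.22 and an edgeR quasi-likelihood adjusted p = 0.909 over 16720 features. The interval reaches from a strong deficit in nuclei to a slight excess. With libraries scaled by their spike-ins instead, Ptgds was called lower (log2 -2.67, edgeR adjusted p = 0.0120), beside 3.26% of all features called lower there and a median of all features of -1.16. That scaling rests on the 23 spike-ins present in all 3 count tables and assumes equal amounts added; the whole-sperm table lists 92. Relative to the median of all features, Ptgds lay at -1.50 in the main scaling and -1.51 with spike-ins.

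Lcn12 (ENSMUSG00000026943.12, chr2:25490845-25493911, minus strand), a secreted lipocalin of the epididymis, is the neighbour of Ptgds, 20798 bases away. Its counts were 90, 110 and 143 in nuclei 1, nuclei 2 and whole sperm, or 17.2, 16.5 and 16.5 CPM. The libraries hardly differed on this scale, and whole sperm lay between the nuclei libraries. Whole sperm was 0.962 times nuclei 1 (95% counting interval 0.734 to 1.27) and 1.00 times nuclei 2 (0.776 to 1.30). The log2 fold change was 0.03 ± 1.95 (SE; edgeR adjusted p = 1.00), with an interval of -3.80 to 3.86, so this test could not have shown a change of several fold either way. Its direction turned with the scaling: the log2 fold change was -0.06 with library size alone and -1.41 with spike-ins.

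The deposited RPKM values, reads per kilobase of transcript with a library scaling that is not given in the sources used here, gave larger ratios for both genes. They are not scaled to the library sizes of the count tables: over genes with at least 20 counts in each library, log2 RPKM per count, nuclei over whole sperm, had a median of -0.03 in either nuclei library. Ratios in RPKM are therefore shifted for all genes together, by an amount that depends on the features kept. The median log2 fold change in CPM was 0.27 over 16720 features. On log2(RPKM + 0.1) it was -0.77 over 13406 features with at least 0.1 RPKM in 2 libraries. Without that filter it was -0.46 over 19811 features. Ptgds stood at 34.1, 61.0 and 196 RPKM, so that whole sperm was 5.73 and 3.21 times the nuclei libraries. Lcn12 was at 5.69, 9.95 and 11.8 RPKM. On this scale whole sperm was 2.08 times nuclei 1 and 1.19 times nuclei 2 for Lcn12. Relative to the median of each fit, the log2 fold change of Lcn12 was 0.13 in filtered RPKM and -0.24 in CPM. That of Ptgds was -1.33 and -1.50. The sign for Lcn12 turned with the RPKM setting. It lay at -0.18 without the filter and at -0.22 on log2(RPKM + 1), where Ptgds lay at -1.64 and -1.71. Beyond the shared shift, RPKM per count differed between libraries within 1 gene: 0.0632, 0.0905 and 0.0826 for Lcn12 (nuclei 1, nuclei 2, whole sperm) and 0.0893, 0.0787 and 0.101 for Ptgds. Relative to whole sperm, this quantity varied between genes with a log2 SD of 0.42 in nuclei 1 (6065 genes) and 0.45 in nuclei 2 (6063 genes). The RPKM and count tables were therefore not made from the same reads per gene by 1 factor per library.

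**Figure D2:**
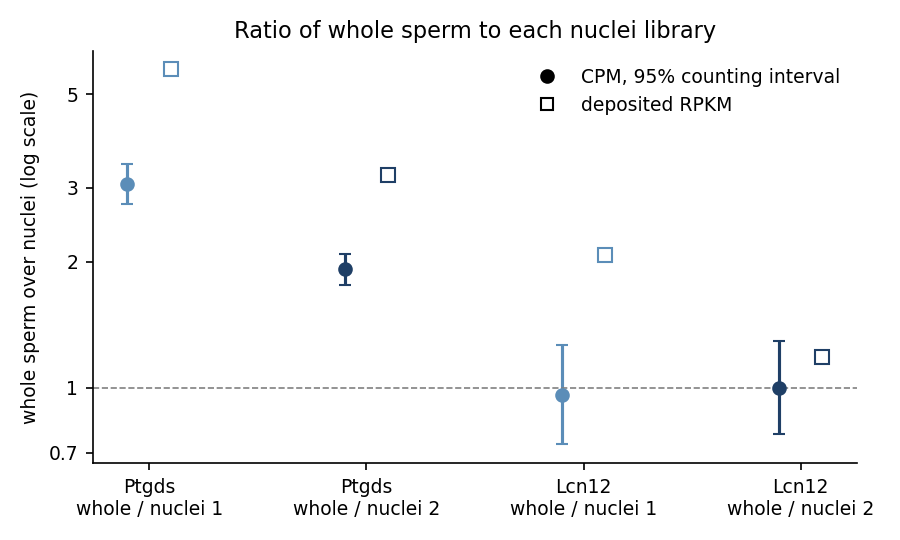
Whole sperm over each nuclei library for Ptgds and Lcn12 on a log scale; filled circles are CPM ratios with 95% counting intervals, open squares are ratios of deposited RPKM, and the dashed line marks equal levels. The intervals of Ptgds lie above 1 and those of Lcn12 span it, while every RPKM ratio lies above the CPM ratio of the same pair.

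Per length, Ptgds exceeded Lcn12 in each library. In RPKM it was 6.00 and 6.13 times Lcn12 in the nuclei libraries and 16.6 times in whole sperm. In CPM per kilobase of the longest annotated transcript (1327 and 716 bases) the ratios were 2.29, 3.80 and 7.27 in the same order. The order Ptgds, Lcn12, Lcn2 held in whole sperm on both scales, where Lcn12 was 3.55 times Lcn2 in RPKM and 6.10 times in CPM per kilobase.

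Lcn2 (ENSMUSG00000026822.14, chr2:32384633-32388252, minus strand) encodes a lipocalin that binds bacterial siderophores and is made by epithelia and neutrophils. Its counts were 0, 1 and 45 (nuclei 1, nuclei 2, whole sperm), or 0, 0.150 and 5.20 CPM. The deposited RPKM values were 0, 0.121 and 3.32. Nearly every Lcn2 read was thus in whole sperm, 9.08-fold above nuclei 1 when that library is set to 3 counts. That figure leaves out counting error in the whole-sperm count. Against the pooled nuclei libraries the ratio was 61.9, with a 95% counting interval of 10.6 to 2499. The gene did not pass the test (edgeR adjusted p = 0.909), and it was testable only through its whole-sperm count. Such a pattern was not rare: of 3993 genes with 23 to 90 counts in whole sperm, 612 (15.3%) had at most 1 count in the nuclei libraries together. Neutrophil markers summed to 83.0, 30.4 and 160 CPM in the same order. Of 4 tested, 2 lay lower in nuclei and none was called; Ltf, the lactoferrin gene that epithelia express too, gave 136 CPM of the whole-sperm sum. Elane, Mpo, Camp and Retnlg, defining neutrophil genes, were at 0 in every library. Others of the list were counted: Cxcr2 had 232, 35 and 148 counts and S100a8 had 31, 0 and 53. The part of neutrophils in the Lcn2 value was not tested.

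Lcn9 (ENSMUSG00000023210.2, chr2:25823153-25825537, plus strand), an epididymal lipocalin at the far end of the cluster, was the reverse case. It had 7 counts in nuclei 1 and 0 in both other libraries, or 1.34 CPM and 0.411 RPKM in nuclei 1. That is 3.86-fold above whole sperm set to 3 counts. This figure leaves out counting error in the nuclei 1 count, so it is not a lower limit. Whole sperm over nuclei 1 had a ratio of 0, with a counting interval of 0 to 0.420. The other nuclei library did not repeat the reads of nuclei 1, and the gene stayed under the filter for the test. In all, 1263 annotated genes (5.44% of 23229) had counts in nuclei 1 alone. The next lipocalin in the row, Lcn11, was another of them, with 5 counts there.

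Lcn5, Lcn6, Lcn8 and Lcn10 had no read in any library, by counts or by RPKM. Lcn5 (ENSMUSG00000026937.12, chr2:25657952-25661977) encodes the epididymal retinoic acid-binding protein, and Lcn8 (ENSMUSG00000036449.6, chr2:25653120-25656217) is a lipocalin of the initial segment. Lcn6 (ENSMUSG00000045684.10, chr2:25676786-25681608) encodes a lipocalin that binds to sperm, and Lcn10 (ENSMUSG00000047356.2, chr2:25682726-25686081) is its neighbour. A count of 0 allows up to 0.572, 0.450 and 0.346 CPM (3 counts; nuclei 1, nuclei 2, whole sperm). At that limit each lies far under Ptgds, and also under Lcn12, as counts per library. Of all 23229 genes, 26.4% had no count in any library, so 4 of 8 members without one is a description of these genes and not a finding about the family.

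The unread members are neighbours. Lcn8, Lcn5, Lcn6 and Lcn10 follow each other within 32962 bases, all on the plus strand, and these 4 genes are the only ones of the tables in that stretch. It begins 159208 bases beyond Lcn12. Reads were present further out on either side. The nearest gene of the tables before it, Fcna, had 0, 0 and 6 counts, and the nearest after it, Obp2a, had none. Of 22 other genes of the tables within 50 kilobases of the cluster, 14 had a count in whole sperm and 6 had none anywhere. Over all 23229 genes, 14630 had a count in whole sperm and 26.4% had none anywhere. No assembled region of the authors' deposited list lay within 50 kilobases of any member. The nearest to Lcn2 was 186526 bases away and the nearest to Ptgds 1846210 bases.

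**Figure D3:**
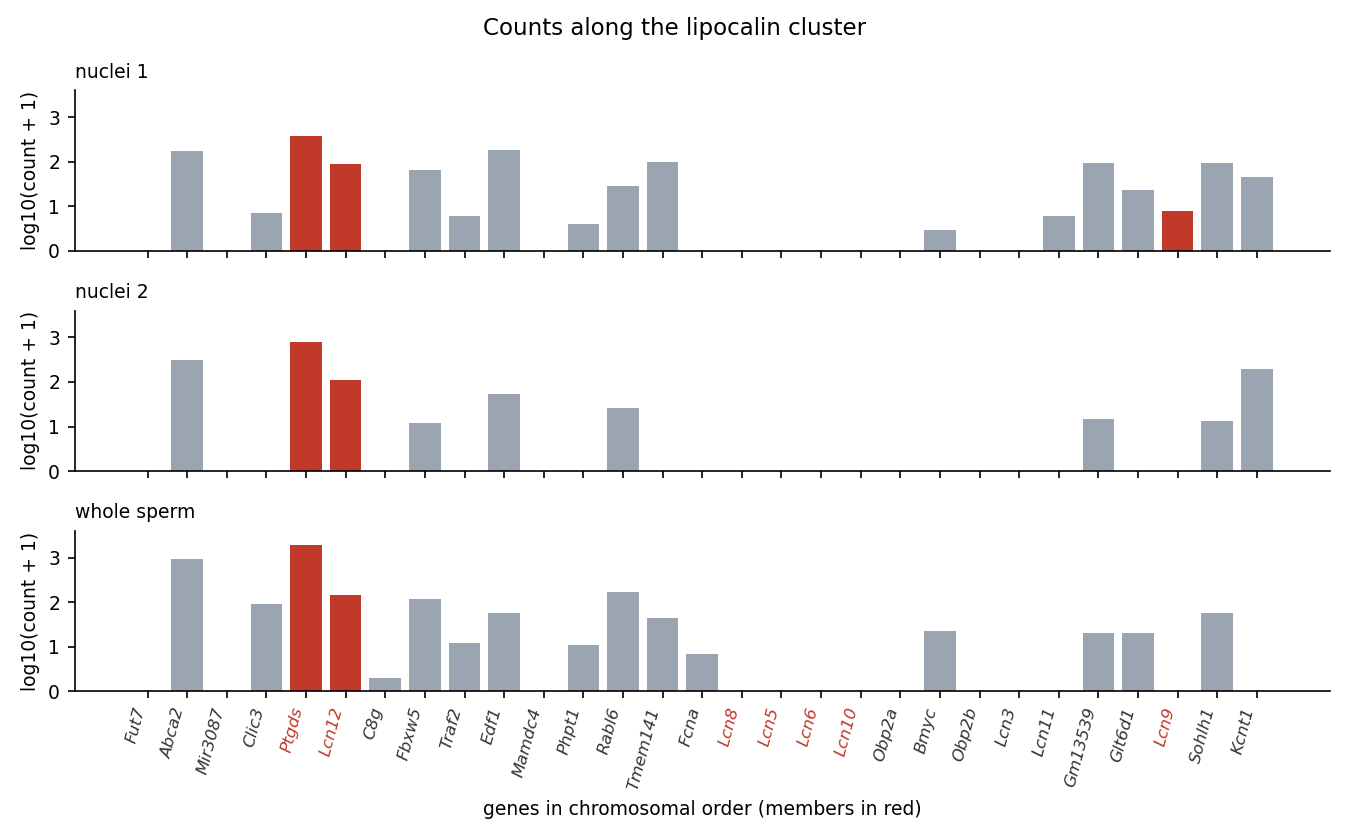
Counts, as log10(count + 1), of the 29 genes of the tables in and around the cluster, in chromosomal order, with 1 panel per library and the 7 clustered members in red. Ptgds is the highest bar of each panel, Lcn12 stands beside it, and the places of Lcn8, Lcn5, Lcn6 and Lcn10 are empty in all 3 panels.

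Of the 8 members, 3 passed the filter on low counts (Ptgds, Lcn12 and Lcn2) and none was called in either direction by edgeR, 0 of them even at an unadjusted p under 0.05. Over all 16720 features tested, 0.0957% were called lower and 0.0658% higher. Ptgds and Lcn2 had both nuclei libraries below whole sperm, against 36.8% of all features tested. Lcn2 could pass the filter only by being high in whole sperm, so it had to lie there.

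Markers of the principal cells of the epididymis also lay lower in nuclei, while clear-cell markers did not share a direction (4 of 8 below 0). Some clear-cell directions were fixed by the filter. Atp6v1g3 and Atp6v0a4 had 42 and 50 counts in whole sperm and 0 in nuclei. Atp6v1b1 and Slc4a9, which lay above 0, had only 2 and 3 counts in whole sperm. Of 15 tested principal-cell markers, 14 had a log2 fold change below 0 (median -2.25; all features tested, 0.27), and Crisp1, which encodes a secreted protein that coats sperm, and Cldn8, a tight junction gene, fell (edgeR adjusted p = 0.0241 and 0.0416). Crisp1 had 488, 525 and 6452 CPM and Cldn8 had 17.2, 6.75 and 157 CPM. Across the alternatives both lay below 0 in all 10 and were called in 6 each, but neither was called at a mean of at least 10 CPM (edgeR adjusted p = 0.491 for both) or with limma on log2(RPKM + 0.1) (adjusted p = 0.517 and 0.514). The whole principal-cell list summed in whole sperm to 5.71 and 5.47 times its level in the nuclei libraries, and to 3.40 and 3.28 times without Crisp1, its most abundant gene. The same ratios were 3.05 and 1.92 for Ptgds and 0.962 and 1.00 for Lcn12. Rnase10 and Sva were at 0 throughout, and Gpx5, an epididymal glutathione peroxidase gene, had 0, 0 and 88 counts. Gpx5, among the 14 below 0, could pass the filter only through whole sperm, so it had to lie there. Vas deferens markers, mostly Akr1b7, summed to 824, 836 and 5583 CPM. Sertoli and Leydig cell markers, from testis cells of which some make Ptgds, summed to 28.4, 7.05 and 21.5 CPM. Amh, Inhba, Star, Insl3, Hsd3b1 and Cyp11a1 were at 0, while Wt1 had 0, 23 and 175 counts and Sox9 had 144, 24 and 11. What part these cells have in the Ptgds value was not tested, and in bulk RNA fewer cells of a type cannot be told apart from less RNA per cell.

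Other genes of the prostaglandin pathway lay lower in nuclei as well. Of 12 tested genes of the prostaglandin D2 list, 10 had a log2 fold change below 0 (median -2.02), against 45.6% of all features. Pla2g4a, the phospholipase that frees arachidonic acid, and Hpgd, which inactivates prostaglandins, fell (edgeR adjusted p = 0.0244 and 0.0177). Of 10 alternatives Pla2g4a was called in 7 and Hpgd in 6, and neither at a mean of at least 10 CPM (edgeR adjusted p = 0.491 for both) or with limma on log2(RPKM + 0.1) (adjusted p = 0.478 and 0.617). Ptgs2, the inducible cyclooxygenase that makes the substrate of Ptgds, had 193, 208 and 1240 CPM (nuclei 1, nuclei 2, whole sperm; log2 -2.63 ± 0.713 SE, edgeR adjusted p = 0.101). Ptges, a prostaglandin E synthase acting on the same substrate, had 109, 140 and 401 CPM (adjusted p = 0.605). The prostaglandin transporter gene Slco2a1 was at 146, 54.1 and 414 CPM (adjusted p = 0.364).

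The alternative source of prostaglandin D2 and a receptor for it were scarce in whole sperm. Hpgds, the haematopoietic synthase, had 66, 1 and 13 counts. Ptgdr, a receptor for prostaglandin D2, had 80, 41 and 6 counts, higher in both nuclei libraries but not called (adjusted p = 0.909). Ptgds thus had more whole-sperm counts than the other D synthase, 1928 against 13. Ptgdr2, also of the prostaglandin D2 list, was absent from the tables.

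Receptors of lipocalins gave no common direction. Of 6 tested, 4 lay below 0 (median -0.70) and none was called. Lrp2, the endocytic receptor megalin that takes up many lipocalins, had 93.1, 96.8 and 313 CPM (log2 -1.72 ± 0.726 SE, edgeR adjusted p = 0.605). Lmbr1l, named as a receptor for tear lipocalin, went the other way, with 166, 397 and 52.4 CPM (adjusted p = 0.364). Lrp1, a relative of Lrp2, was at 16.2, 21.6 and 41.7 CPM. Slc22a17, a receptor for the Lcn2 protein, was at 0 in every library.

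**Figure D4:**
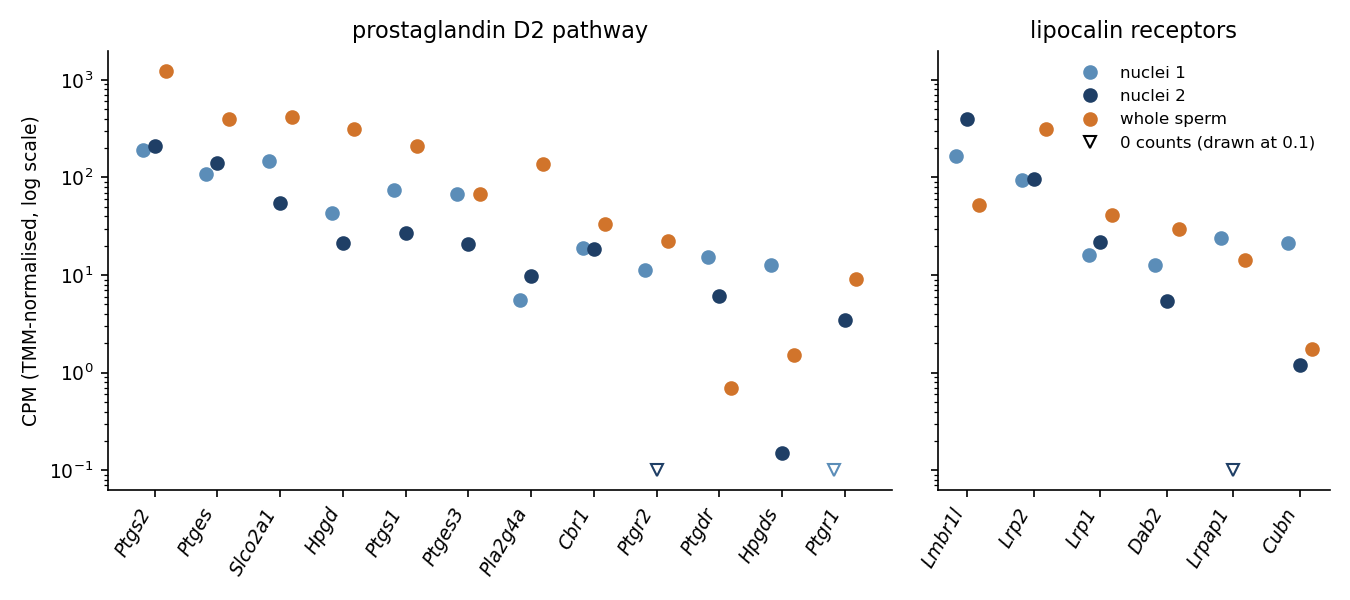
CPM on a log scale of the tested genes of the prostaglandin D2 list (left) and of the lipocalin receptor list (right), with 1 point per library and open triangles for 0 counts, drawn at 0.1. On the left, whole sperm lies above both nuclei libraries for Ptgs2, Ptges, Slco2a1, Hpgd, Ptgs1, Pla2g4a, Cbr1, Ptgr1 and Ptgr2, and below both for Ptgdr. On the right, it lies above both for Lrp2, Lrp1 and Dab2 and below both for Lmbr1l.

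An adjusted column for whole sperm is also among the authors' files, and it kept different parts of the members. It held 1350 for Ptgds (70.0% of the count), 43 for Lcn12 (30.1%) and 45 for Lcn2, its whole count. Each is the whole-sperm count less about the mean of the nuclei counts, so the column restates the nuclei values and adds no evidence of its own.

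Genes nearest to the members in level were sought by the distance of log2(CPM + 1) over the 3 libraries, among 23229 genes. For Ptgds these were Ube2r2 (distance 0.141), Suco (0.248) and Aff4 (0.330). For Lcn12 they were Dis3l (0.107), Dcst1 (0.132) and Ncoa7 (0.147). Within a distance of 0.5 lay 6 genes for Ptgds and 46 for Lcn12, so over 3 points many genes resemble the second.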

How the data were processed

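Gene and region counts are whole numbers deposited by the authors without normalization, and RPKM values were deposited in a separate table, per the file headers. An adjusted column for whole sperm that the authors deposited is treated here as a score. The submitters' processing notes name HTSeq, DESeq2, TopHat2 2.0.12, bedtools, CASAVA 1.8.2, SAMtools 0.1.19 and Cufflinks 2.1.1, and build mm10. The sources used here do not say what each tool did or whether counting used strand. Spike-ins and summary rows stayed out of library sizes. In whole sperm 34.4% of reads lay outside features and 1.97% were ambiguous, with no such reads given for the nuclei libraries.

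Counts were tested with edgeR 4.0.16 (R 4.3.3; quasi-likelihood, TMM, filterByExpr, Benjamini-Hochberg, threshold 0.05) over 16720 of 25610 features. A feature counted in 1 group alone passes the filter through that group, so its direction is fixed in advance. Counts of list genes below 0 include such features. The fit has 1 residual degree of freedom and infinite prior degrees of freedom, so errors rest on a spread pooled over features (biological coefficient of variation 1.30), and the single library of whole sperm is taken to vary as nuclei do. An exact permutation test of 2 against 1 cannot go below 0.333. The standard error came from the F statistic, and fold changes have normal 95% intervals. Ratios have exact conditional binomial intervals. RPKM was tested with limma 3.58.1 on log2(RPKM + 0.1); DESeq2 1.42.0 was another alternative. The code of the fit was tested on simulated data of much smaller spread than these libraries, which says nothing of its power here. The principal-cell sum without its most abundant gene was added after seeing the data. Genes and lengths come from GENCODE vM21. Promoter windows were searched on both strands for AGAACA for steroid hormone response elements, TGTTTAC for forkhead factors, TATAAA for the basal machinery, GGGCGG for Sp1 and the NF-kB motif by name. Protein sequences were not used here.

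Members, gene lists, tests and alternatives were chosen with earlier results of these data known. The text names every member, up to 3 genes of highest mean per list, list genes with adjusted p under 0.05, 3 nearest genes for each of 2 members, and Prm2; other genes were named after their values were seen.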

Additional observations from a re-analysis of the deposited data

Results flagged for a closer look

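The comparisons used reads assigned to features alone. In whole sperm, 5896320 further reads fell outside the features and 336963 were ambiguous. No such reads are given for the nuclei libraries, so the libraries cannot be compared in this respect. The positions of the whole-sperm reads are not given, so whether any fall at the lipocalin genes was not tested. With at most 2 libraries a group, no search for outlying samples was made.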

How the results depend on the processing

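Ptgds lay below 0 in all 10 replicated alternatives (log2 -2.67 to -1.19) and was called in 1, spike-in scaling (-2.67, edgeR adjusted p = 0.0120; 0.0120 to 0.948 over the settings), which made the number of members called 1 in place of 0. Relative to the median of all features it lay between -1.71 and -1.33, but at -0.90 from nuclei 2 alone. Lcn12 turned below 0 with library size alone (-0.062), spike-ins (-1.41), without the 10 most abundant features (-0.28), at a mean of at least 10 CPM (-0.046) and with limma on RPKM (-0.64 at a pseudocount of 0.1 with or without the filter, -0.58 at 1); it was called in none. Lcn2 lay below 0 in all 8 alternatives that gave an adjusted p (log2 -7.11 to -2.03) and was called in none; DESeq2 gave it no adjusted p, and it fell under the filter of 10 CPM. From 1 nuclei library alone, with no test, Ptgds ranged from -1.61 to -0.94, Lcn12 from -0.0022 to 0.06 and Lcn2 from -7.18 to -4.84. The number of members below 0 was 2 or 3. Features called numbered 27, but 549 with spike-ins, 59 without the 10 most abundant features, 166 with DESeq2, 122 with limma at a pseudocount of 1, and 0 at a mean of at least 10 CPM (277 lower and 431 higher at an unadjusted p under 0.05) and with limma at 0.1 (686 and 414 with the filter, 2319 and 424 without); the cause was not tested. No paired analysis was possible because whole sperm has 1 preparation. Depth limits the members at 0 and Lcn9.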

Other observations

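Of 14 other secreted lipocalins in the tables, 9 had no count anywhere (26.4% of all genes had none), among them Rbp4, the plasma retinol carrier, and Apom. Ambp, which encodes alpha-1-microglobulin, had 88, 628 and 5 counts (nuclei 1, nuclei 2, whole sperm), or 16.8, 94.1 and 0.577 CPM, and did not pass the test (log2 6.54 ± 1.69 SE, edgeR adjusted p = 0.0600). The list summed to 27.9, 101 and 11.2 CPM. Apod, a lipocalin that binds arachidonic acid and progesterone, was at 10.1, 5.40 and 10.5 CPM in the same order.

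Among the intracellular lipid-binding proteins, which share the barrel fold, 5 of 9 tested lay below 0 (median -0.09) and none was called. Fabp9, the fatty acid-binding protein of the sperm perforatorium, had 33.4, 13.5 and 15.4 CPM. Pmp2, another gene of this list, had 0, 0 and 93 counts. In the retinoid list 4 of 10 tested lay below 0 and none was called; Aldh1a1, which makes retinoic acid, had 32.8, 77.4 and 271 CPM (log2 -2.30, edgeR adjusted p = 0.283). The retinoid receptor genes Rxra and Rara were higher in both nuclei libraries, at 28.4 and 112 against 14.1 CPM and 51.3 and 64.6 against 17.9 CPM, and were not called. Of 11 tested transcription factors of the epididymal epithelium, 8 lay below 0 (median -1.20) and none was called. Pax2 and Pax8 were uneven between the nuclei libraries, with 180 and 20 counts and 104 and 4 counts, against 372 and 248 in whole sperm.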
